A study of Mus musculus with 6 samples.

Results

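The miRNAs described here carry the name miR-378: miR-378a-3p and miR-378a-5p, the 2 arms of the hairpin encoded in Ppargc1b, and miR-378b. They were taken by name, but the choice was made with earlier results of these data known. They are 3 of the 1251 miRNA entries in the deposited table, and all 3 passed the filter on low values that left 269 entries for testing. The table also holds miR-378c and miR-378d, which are described beside them, making 5 entries of the name. The libraries were small RNA profiles of 3 samples of interscapular brown adipose tissue (BAT_EPA 3, 4 and 5) and 3 of inguinal subcutaneous adipose tissue (SAT_EPA 1, 3 and 8), all from C57BL/6J mice, an inbred laboratory strain. Both groups had been given, from an age of 5 to 6 weeks and for 11 weeks, a high fat diet whose energy came to 45% from fat, to 20% from protein and to 35% from carbohydrate, supplemented with 6.75% eicosapentaenoic acid (EPA, an omega-3 fatty acid), and were fasted for 4 hours before the tissues were taken. Mice on the diet without EPA were not analysed here, so the comparison below is between the tissues of EPA-fed mice.

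The series asks which adipose miRNAs respond to EPA, and brown and subcutaneous white fat are compared here as the tissues in which that response was sought. A miRNA hairpin is cut into 2 arms, 5p and 3p, and the arm that is loaded into Argonaute pairs with target mRNAs mainly through its seed, bases 2 to 8. The hairpin of miR-378a lies in an intron of Ppargc1b, the gene of PGC-1beta, a coactivator that raises mitochondrial and fatty acid oxidation genes. On GRCm38, the assembly also called mm10, Mir378a spans 61397835 to 61397900 of chromosome 18 on the minus strand, the strand of Ppargc1b (61298136 to 61400431); a predicted gene, Gm25301, overlaps it on the other strand. In mice, loss of both arms has been reported to raise oxidative metabolism and protect against diet-induced obesity, with the carnitine acetyltransferase gene Crat and the Mediator subunit gene Med13 as targets, and excess miR-378 in fat has been reported to enlarge brown fat by repressing the phosphodiesterase gene Pde1b.

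The other miR-378 loci lie on other chromosomes (GRCm38). Mir378c lies on chromosome 14 at 46954830 to 46954928 on the minus strand, within an intron of Samd4, which is transcribed from the opposite strand. Mir378b lies on chromosome 11 at 88352773 to 88352864 on the plus strand, within an intron of Msi2, also transcribed from the opposite strand. Mir378d, on chromosome 10 at 126710282 to 126710391 on the minus strand, overlaps no other annotated gene.

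Of the 5 entries, 3 were matched to a mature sequence of the RefSeq table (build GRCm38.p6). They are shown 5′ to 3′ with the seed in capitals, because the entries differ in so few bases that this bears on how reads could be told apart.
miR-378c: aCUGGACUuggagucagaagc
miR-378d: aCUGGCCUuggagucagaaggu
miR-378b: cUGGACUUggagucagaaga
Counted from the 5′ end of miR-378c, miR-378d was identical at 19 of 21 aligned bases and carried the substitutions A6C, inside the seed, and C21G. MiR-378b begins 1 base later, was identical at 19 of 20 aligned bases and carried C21A. No 2 of the 3 seeds were the same, since the later start of miR-378b shifts its seed by 1 base. How the authors assigned reads among such entries is not given in the sources used here, so the split of reads between the miR-378 entries is uncertain.

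The hairpins are shown with the mature sequence in capitals, because they place it on different sides.
Mir378c: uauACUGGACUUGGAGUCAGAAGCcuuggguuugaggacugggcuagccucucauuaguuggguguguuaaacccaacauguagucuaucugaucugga
Mir378d: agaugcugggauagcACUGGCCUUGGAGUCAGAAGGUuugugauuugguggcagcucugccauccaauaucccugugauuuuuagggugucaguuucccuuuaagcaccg
Mir378b: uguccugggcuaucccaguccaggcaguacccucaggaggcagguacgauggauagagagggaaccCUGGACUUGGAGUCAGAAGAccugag
The mature sequence took positions 4 to 24 of 99 in Mir378c and 16 to 37 of 110 in Mir378d, both on the 5′ side, and positions 67 to 86 of 92 in Mir378b, on the 3′ side.

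The deposited values are log2 abundances between a floor of 3.32 (10 on the linear scale) and a maximum of 18.67, and over the top 100 ranks the values at a given rank differed between libraries by at most 0.139 on the log2 scale. They parted further at low ranks, where 235 to 273 entries per library stood above the floor. For abundant entries a level is therefore a rank among the miRNAs of the library expressed on a log2 scale, and how deeply each library was read is unknown. Brown fat was called higher for 90 and lower for 96 of the 269 tested entries (limma, adjusted p threshold of 0.05), which is 33.5% and 35.7%, or 69.1% in either direction. The 3 values of one tissue lay wholly apart from those of the other for 74% of entries, and above them in brown fat for 33.8%. Markers listed for the tissues went with the labels. The 3 brown fat miRNAs (miR-193b-3p, miR-365-3p and miR-455-3p) were higher and the 3 white fat miRNAs (miR-196a-5p, miR-10b-5p and miR-335-5p) lower in brown fat. They were chosen with earlier results of these data known, so this is not independent support. MiR-196a-5p and miR-335-5p were at the floor in every brown library and passed the filter through subcutaneous fat alone. In a longer list of brown fat miRNAs, given below, 11 of 15 tested were higher and 3 lower in brown fat. Markers of other cell types also moved with the tissue. Both endothelial entries (miR-126-3p and miR-126-5p) were lower in brown fat, their sum taking 0.134% to 0.158% of the brown libraries and 0.412% to 0.524% of the subcutaneous libraries. Of 4 stromal markers 3 were lower and miR-214-3p was not called, with sums of 1.06% to 1.28% in brown fat and 3.71% to 4.67% in subcutaneous fat. Of 4 leukocyte markers, miR-223-3p and miR-146a-5p were lower, miR-150-5p was higher and miR-142-3p was at the floor in all libraries; the sums were 1.38% to 1.89% in brown fat and 0.605% to 0.827% in subcutaneous fat. Among the 3 blood markers, miR-486-5p was higher by 2.95 and miR-451a lower (-1.49) on the log2 scale, and miR-144-3p was at the floor throughout; the sums were 8.72% to 8.73% in brown fat and 0.811% to 1.51% in subcutaneous fat. The part of these cell types in the miR-378 differences was not tested. In whole tissue, a larger share of cells with a miRNA and more of it per cell cannot be told apart.

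MiR-378a-3p, the abundant arm, stood at 18.67 on the log2 scale in each of the 3 brown libraries, against 15.16, 15.47 and 15.30 in SAT_EPA 1, 3 and 8. It was ranked first in every brown library, and 16th, 14th and 15th in those subcutaneous libraries, so the tissues did not overlap. Brown fat exceeded subcutaneous fat by 3.37 ± 0.11 on the log2 scale, or 10.3-fold (SE; 3 libraries a tissue; limma adjusted p = 5e-06). The brown value is the maximum of the table and is shared by the top miRNA of every library, so brown fat added no spread to this test and its SE and p can be too small.

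As a share of the library, measured on the linear scale above the floor, miR-378a-3p made up 17.4% of each brown library, against 1.52%, 1.88% and 1.67% of SAT_EPA 1, 3 and 8. The mean shares were 17.4% and 1.69% ± 0.18 (SD, n = 3), and the exact two-sided permutation test gave p = 0.1, the smallest that 3 against 3 allows. The brown share is that of any miRNA ranked first: let-7c-5p, from the let-7 family of differentiation-linked miRNAs, took 17.4% of each subcutaneous library, and 2.76%, 2.49% and 2.49% of BAT_EPA 3, 4 and 5. Its seed, shared with 10 other mature miRNAs in RefSeq, has no 7-base match to those shown above.
let-7c-5p: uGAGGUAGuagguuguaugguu

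The entries ranked next to miR-378a-3p also differed by tissue. In each brown library the next value, 17.68 on the log2 scale, belonged to miR-486-5p, a miRNA of red cells and muscle, and to miR-3107-5p, which held identical values. In subcutaneous fat its neighbours were miR-27b-3p and miR-205-5p in SAT_EPA 1, miR-10a-5p and let-7b-5p in SAT_EPA 3, and let-7b-5p and the miR-486-5p pair in SAT_EPA 8. None of these subcutaneous gaps was wider than 0.21 on the log2 scale.

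**Figure D1:**
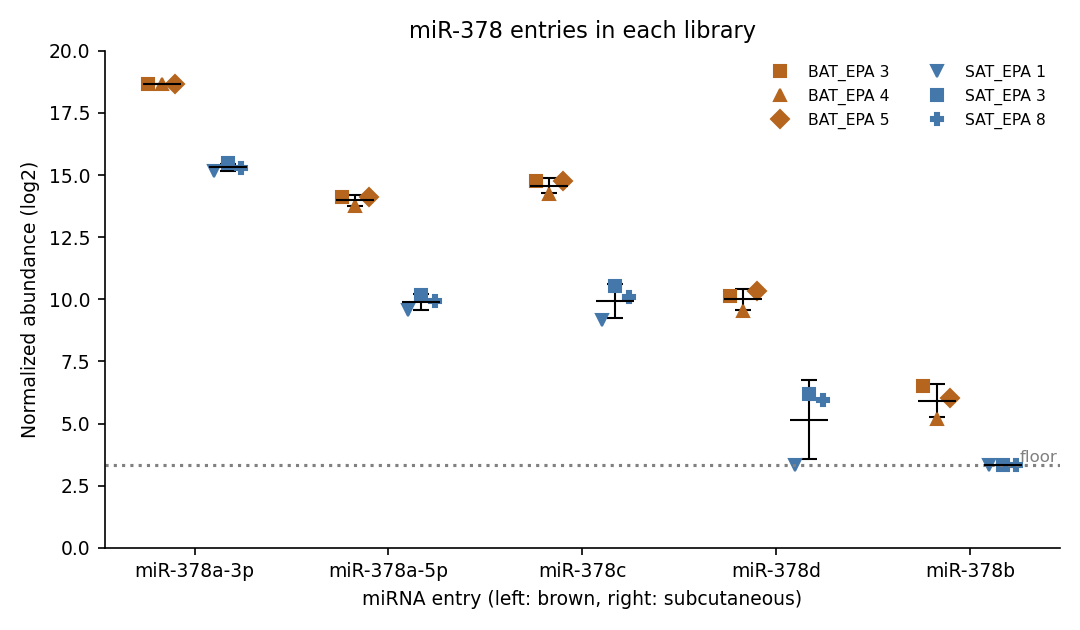
Normalized log2 abundance (vertical axis) of each miR-378 entry (horizontal axis), with brown libraries on the left and subcutaneous libraries on the right of each pair. Symbols are libraries and black bars give the mean ± SD of 3; the dotted line is the floor of the table, 3.32. For each entry the 3 brown values lie above the 3 subcutaneous values, as they do for 33.8% of all tested entries. For miR-378b this is set by the floor, where all its subcutaneous values stood.

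MiR-378a-5p, the less abundant arm of the same hairpin, stood at 14.11, 13.74 and 14.11 on the log2 scale in BAT_EPA 3, 4 and 5, against 9.57, 10.18 and 9.93 in SAT_EPA 1, 3 and 8. Every brown value lay more than 3 log2 units above every subcutaneous value. The excess in brown fat was 4.10 ± 0.21 on the log2 scale, or 17.1-fold (SE; 3 libraries a tissue; limma adjusted p = 2.5e-05). It ranked 25th, 30th and 25th in the brown libraries, against 100th, 88th and 93rd in the subcutaneous libraries. Its share was 0.680% ± 0.0966 of the brown libraries and 0.0397% ± 0.00835 of the subcutaneous libraries (SD, n = 3; exact two-sided permutation p = 0.1). Unlike miR-378a-3p, it did not hold a value at the maximum or the floor in any library, so both tissues contributed spread to its test.

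**Figure D2:**
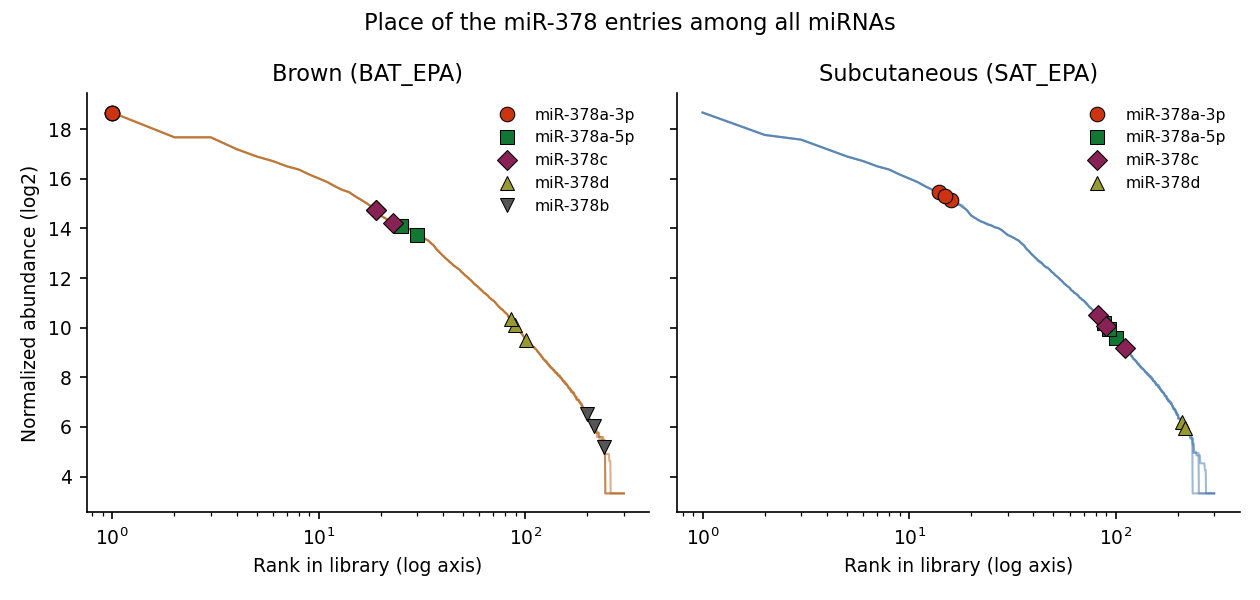
Normalized log2 abundance against rank within a library (log axis), brown on the left and subcutaneous on the right; thin lines are the libraries and symbols the miR-378 entries above the floor. MiR-378a-3p is ranked first in the brown libraries and between 14th and 16th in the subcutaneous libraries, while miR-378a-5p is at ranks 25 to 30 in brown fat and at ranks 88 to 100 in subcutaneous fat.

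The 3p arm was the more abundant in all 6 libraries. The log2 ratio of 3p over 5p was 4.56, 4.93 and 4.56 in BAT_EPA 3, 4 and 5, against 5.59, 5.29 and 5.37 in SAT_EPA 1, 3 and 8. The ratios of the tissues did not overlap, with the 3p arm favoured less in brown fat. On the linear scale above the floor, the 3p arm was 23.6, 30.6 and 23.6 times the 5p arm in the brown libraries, against 49.0, 39.4 and 41.7 times in the subcutaneous libraries.

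The difference in log2 arm ratio was -0.73 ± 0.29 (SE, n = 3 per tissue), 1.66-fold, and did not pass the threshold over the 54 hairpins with both arms tested (limma adjusted p = 0.079). Among these hairpins the ratio was called higher in brown fat for 15 (27.8%) and lower for 11 (20.4%), 48.1% in all, and in 57.4% the tissues did not overlap. In absolute size, 13 of the hairpins differed less than miR-378a. The call depends on the settings, since the adjusted p was 0.022 among the 15 hairpins left by a filter 10 times as strict and 0.0498 with 40 added to the linear values. The numerator in brown fat is the value every top-ranked miRNA was given, so the brown ratio also reflects that value.

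For comparison, the called hairpins with the largest fall in the 3p-to-5p ratio in brown fat were miR-193a (log2 difference -4.97), miR-27a (-4.56) and miR-350 (-3.34). Those with the largest rise were miR-1843b (5.23), miR-708 (4.96) and miR-434 (4.03). Apart from miR-193a and miR-1843b, each of these 6 had an arm at the floor in at least 1 library, so the size of its ratio difference is uncertain. In miR-193a and miR-1843b the more abundant arm itself changed between the tissues, as it did between libraries in 12 of the 54 hairpins, whereas in miR-378a the 3p arm led throughout.

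**Figure D3:**
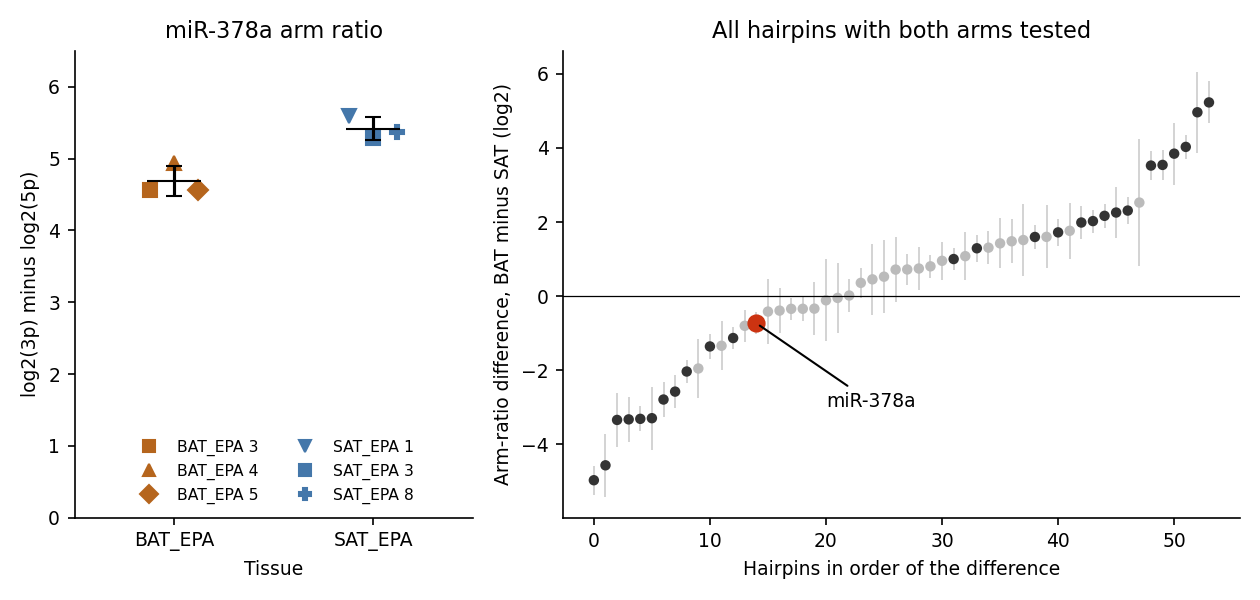
Left, log2(3p) minus log2(5p) of miR-378a in each library, with the mean ± SD of 3 per tissue. Right, the difference of that ratio between the tissues (brown minus subcutaneous, log2, ± SE) for the 54 hairpins, from the lowest to the highest. Dark points passed an adjusted p of 0.05 and grey points did not. MiR-378a is shown in red at -0.73, 15th from the lowest, and the median of the 54 was 0.72.

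MiR-378c stood at 14.75, 14.24 and 14.75 on the log2 scale in BAT_EPA 3, 4 and 5, against 9.18, 10.53 and 10.08 in SAT_EPA 1, 3 and 8. Brown fat held 25.1-fold more of it, a log2 difference of 4.65 ± 0.36 (SE; 3 libraries a tissue; limma adjusted p = 8.2e-05). In brown fat it was the second most abundant entry of the name, above miR-378a-5p without overlap. In subcutaneous fat it averaged 9.93 ± 0.69 and miR-378a-5p 9.89 ± 0.31 (SD, n = 3), and their values overlapped.

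MiR-378d, the entry with a changed base in the seed, stood at 10.13, 9.52 and 10.34 in the brown libraries, and at the floor, 6.19 and 5.94 in SAT_EPA 1, 3 and 8. Brown values again lay above all subcutaneous values, and the log2 difference was 4.84 ± 0.79 (SE; 3 libraries a tissue; limma adjusted p = 0.0020). The size rests in part on the library at the floor: the fold was 28.7 with all libraries and 15.2 without SAT_EPA 1. It also shifted with the low-value treatment, to 12.8-fold with 40 added to the linear values and 67.5-fold with the floor subtracted and 1 added. Leaving out BAT_EPA 4 and SAT_EPA 3, which held the most miR-133a-3p, made it 48.6-fold.

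MiR-378b was the least abundant entry, at 6.52, 5.20 and 6.04 in BAT_EPA 3, 4 and 5, and did not rise above the floor in any subcutaneous library. Its mean was 1.14 times the filter, which it passed through the brown libraries alone, so its adjusted p of 0.0049 (limma) is not evidence of its own, and no fold is given against the floor. In BAT_EPA 4 it stood 240th of 243 entries above the floor.

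Set against miR-378a-3p on the linear scale, miR-378c amounted to 6.56%, 4.63% and 6.56% in BAT_EPA 3, 4 and 5, and to 1.56%, 3.23% and 2.66% in SAT_EPA 1, 3 and 8. MiR-378d amounted to 0.265%, 0.173% and 0.308% in those brown libraries, with at most 0.140% in a subcutaneous library. The brown denominator is the table's maximum, the value given to any miRNA ranked first, so these percentages cannot show whether the proportion differed between the tissues. Adding miR-378c to miR-378a-3p changed little, with a log2 difference of 3.41 (limma adjusted p = 5.1e-06). Summed over all 5 entries, the name took 19.3%, 18.8% and 19.3% of BAT_EPA 3, 4 and 5, against 1.58%, 1.99% and 1.76% of SAT_EPA 1, 3 and 8 (exact two-sided permutation p = 0.1, n = 3 per tissue). MiR-378a-3p made up 90.0% to 92.5% of that sum in brown fat and 94.4% to 96.5% in subcutaneous fat.

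Leaving aside miR-378b, the other 4 entries were called higher in brown fat, as were 33.5% of tested entries; because they may share reads and the arms share a hairpin, they are not 4 separate measurements. In order of the difference among the 269 tested entries, 18 were larger than miR-378d, 20 than miR-378c, 25 than miR-378a-5p and 32 than miR-378a-3p. The size of every difference moved with the scaling. The median of all tested entries was -0.45 on the log2 scale as deposited, -0.09 after median-of-ratios scaling and 0.67 when libraries were centred on miR-16-5p, miR-103-3p and miR-191-5p, and with these scalings 101 were higher and 82 lower, and 124 higher and 46 lower. The log2 difference of miR-378a-3p was 3.79 and 4.49 under these scalings (13.8-fold and 22.5-fold), and relative to the median of all tested entries it was 3.82 as deposited, 3.88 and 3.82. That of miR-378a-5p relative to the median was 4.55, 4.60 and 4.55. Centring shifts every entry of a library by the same amount, so the deposited and centred values relative to the median had to be equal. The centred scaling moved miR-378a-5p to 37.4-fold, miR-378c to 54.9-fold and miR-378d to 62.8-fold. Each fold rose 2.19 times, and the entries used for centring were not all alike in the tissues. MiR-103-3p was lower in brown fat (-2.07, limma adjusted p = 0.00011). MiR-16-5p stood at 11.21, 11.48 and 11.70 in BAT_EPA 3, 4 and 5, against 12.59, 12.65 and 12.89 in SAT_EPA 1, 3 and 8. The values of miR-191-5p overlapped between the tissues.

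**Figure D4:**
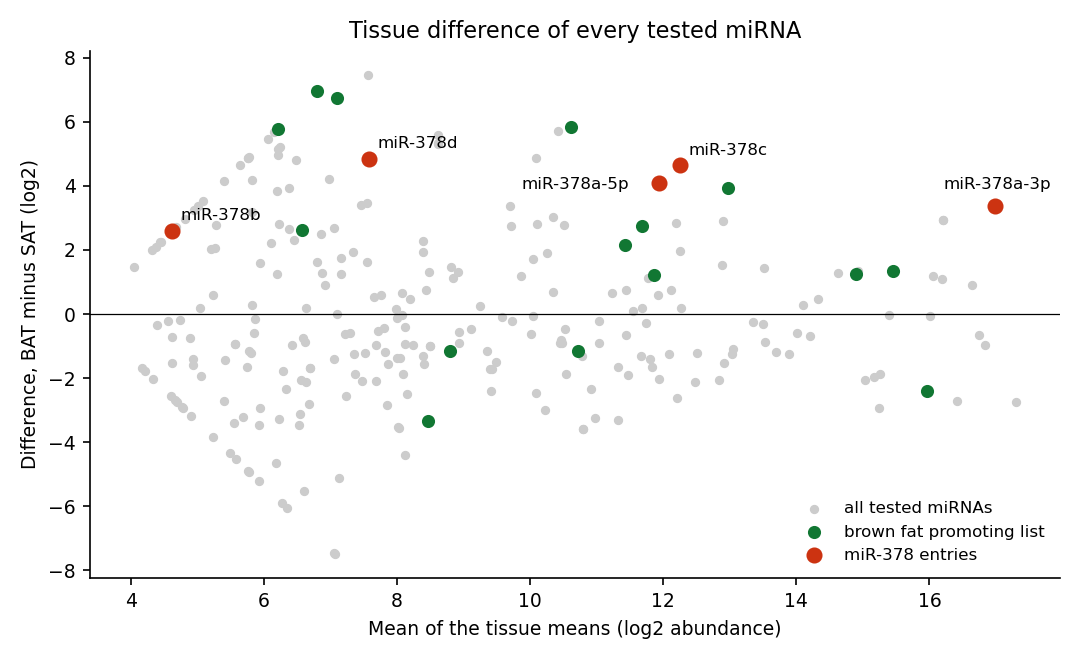
Log2 difference between the tissues (brown minus subcutaneous, vertical axis) against the mean log2 abundance (horizontal axis) of the 269 tested entries. Red points are the miR-378 entries, of which miR-378a-3p, miR-378a-5p, miR-378c and miR-378d lie between 3.37 and 4.84; the height of miR-378b is set by the floor, where all its subcutaneous values stood. Green points are a list of miRNAs reported to promote or mark brown fat. Of these, 11 of 15 were called higher and 3 lower, against 33.5% and 35.7% of all tested entries. Among those higher, miR-129-5p and miR-365-1-5p were at the floor in every subcutaneous library.

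The miRNAs most like each arm over the 6 libraries were taken as the 5 with the smallest root mean square distance between log2 values centred on their mean. For miR-378a-3p these were miR-3061-3p (distance 0.26 on the log2 scale), miR-3107-5p and miR-486-5p (0.32, with identical values), miR-744-5p (0.32) and miR-671-3p (0.35). For miR-378a-5p the closest was miR-193b-3p (0.20), a miRNA that promotes brown adipocyte differentiation in cultured mouse cells, followed by miR-6406 (0.23), miR-1900 (0.34), miR-378c (0.36) and miR-378a-3p (0.40). MiR-3061-3p, miR-6406 and miR-1900 were at the floor in every subcutaneous library. In every brown library miR-378a-3p held the value of rank 1 (18.67), and miR-3107-5p and miR-486-5p that of ranks 2 and 3 (17.68). Their lack of spread in brown fat was thus set by rank, which makes up part of their likeness.

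MiR-193b-3p stood at 15.02, 14.52 and 15.30 on the log2 scale in BAT_EPA 3, 4 and 5, against 10.79, 11.02 and 11.20 in SAT_EPA 1, 3 and 8, a log2 difference of 3.95 ± 0.23 (SE; 3 libraries a tissue; limma adjusted p = 3.9e-05). Its level was lowest in BAT_EPA 4 among the brown libraries, as were those of miR-378a-5p, miR-378c, miR-378d and miR-378b. It is encoded on chromosome 16 at 13449570 to 13449591 on the plus strand. Its seed is not that of any miR-378 entry shown, but the same bases open miR-378d, starting 1 base before that entry's seed. The sequence is given for comparison.
miR-193b-3p: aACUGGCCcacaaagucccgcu

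A list of 18 other miRNAs reported to promote or mark brown or beige adipocytes had 15 tested members. Brown fat was higher for 11 and lower for 3, against 33.5% and 35.7% of all tested entries, and miR-203-3p was not called. Summed, the list took 7.47% to 9.98% of the brown libraries and 6.95% to 10.8% of the subcutaneous libraries, so the sums overlapped. In subcutaneous fat the most abundant member was miR-26a-5p, at 17.58, 16.72 and 17.20 in SAT_EPA 1, 3 and 8. That member was lower in brown fat (-2.39), so the overlap of the sums need not hold for the other members. The median difference of the tested members was 2.15, against -0.45 for all tested entries. Of those higher, miR-129-5p and miR-365-1-5p were at the floor in every subcutaneous library and passed the filter through brown fat alone. MiR-193b-5p was at the floor in SAT_EPA 1 and 8 and at 4.53 in SAT_EPA 3. The calls of these entries are not evidence of their own, and the floor sets part of their size. Among those higher, miR-328-3p had a log2 difference of 2.73 ± 0.30 and miR-30c-5p, a promoter of thermogenic genes, one of 1.24 ± 0.17 (SE; 3 libraries a tissue; limma adjusted p = 0.00037 and 0.0010). MiR-129-5p stood at 10.74, 9.85 and 10.23 in BAT_EPA 3, 4 and 5 and at the floor in each of the 3 subcutaneous libraries. The 3 that were lower were miR-30b-5p (-1.16), miR-26a-5p (-2.39) and miR-193a-3p (-3.34).

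Of 18 other listed miRNAs encoded in introns of protein-coding genes, 9 were tested, 4 being higher and 4 lower in brown fat, a split close to the 33.5% and 35.7% of all tested entries. Their median difference was 0.29, against -0.45 for all tested entries. When rows with identical values were collapsed, miR-486-5p (log2 difference 2.95) left the list, because miR-3107-5p, with the same values, was kept. The median of the list was then -0.89, against -0.42 for all tested entries, so its sign depended on that member. MiR-107-3p, from Pank1, a gene of coenzyme A synthesis, stood at 11.34, 10.65 and 11.65 in brown fat, against 9.27, 9.21 and 9.40 in subcutaneous fat (log2 difference 1.92 ± 0.28 SE over 3 libraries a tissue, limma adjusted p = 0.0014). MiR-103-3p, from the paralogs Pank2 and Pank3, was lower in brown fat, at 11.88, 11.75 and 11.81 in brown fat and 13.56, 14.05 and 14.02 in subcutaneous fat (-2.07 ± 0.17 SE over 3 libraries a tissue, limma adjusted p = 0.00011). Both arms of miR-335, from the imprinted gene Mest, were at the floor in brown fat and called lower. MiR-33-5p and miR-33-3p, from Srebf2, were at the floor in all libraries.

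MiR-378a is also abundant in skeletal muscle, which adjoins the interscapular depot, and muscle miRNAs varied widely within both tissues. MiR-133a-3p, a muscle miRNA, stood at 10.32, 17.20 and 12.50 on the log2 scale in BAT_EPA 3, 4 and 5, and at 10.74, 16.90 and 13.32 in SAT_EPA 1, 3 and 8. Summed, the 5 muscle markers took 0.0526% to 6.29% of the brown libraries and 0.0706% to 5.12% of the subcutaneous libraries, with BAT_EPA 4 and SAT_EPA 3 the highest; miR-1a-3p and miR-499-5p were at the floor in all 6. Of 11 listed muscle miRNAs 4 were tested, and limma called 0 higher and 0 lower, against 69.1% of all tested entries called in either direction. None had an unadjusted p under 0.05, and the median difference was -0.26. The SEs of these 4 differences were 1.27 to 2.16 on the log2 scale, so the lack of calls does not show equal levels in the tissues.

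In subcutaneous fat, miR-378a-3p, miR-378a-5p, miR-378c and miR-378d stood in the same order as the muscle markers, lowest in SAT_EPA 1 (markers at 0.0706% of the library), next in SAT_EPA 8 (0.429%) and highest in SAT_EPA 3 (5.12%). In brown fat, BAT_EPA 4, the brown library with the most muscle signal, had the lowest miR-378a-5p, miR-378c, miR-378d and miR-378b of the brown libraries, and miR-378a-3p, at the maximum in all 3, could not follow any marker. SAT_EPA 1 also stood apart in epithelial miRNAs. MiR-205-5p was at 15.02 there, against 7.35 and 5.74 in SAT_EPA 3 and 8. MiR-203-3p was at 12.25, against 7.28 and 8.56, and miR-200b-3p at 9.52, against the floor in both. The part of muscle or epithelial RNA in the miR-378 values within a tissue was not tested. Without BAT_EPA 4 and SAT_EPA 3, the log2 difference was 3.44 for miR-378a-3p and 4.36 for miR-378a-5p (both limma adjusted p = 0.0017), and that of the arm ratio was -0.92 (adjusted p = 0.13).

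**Figure D5:**
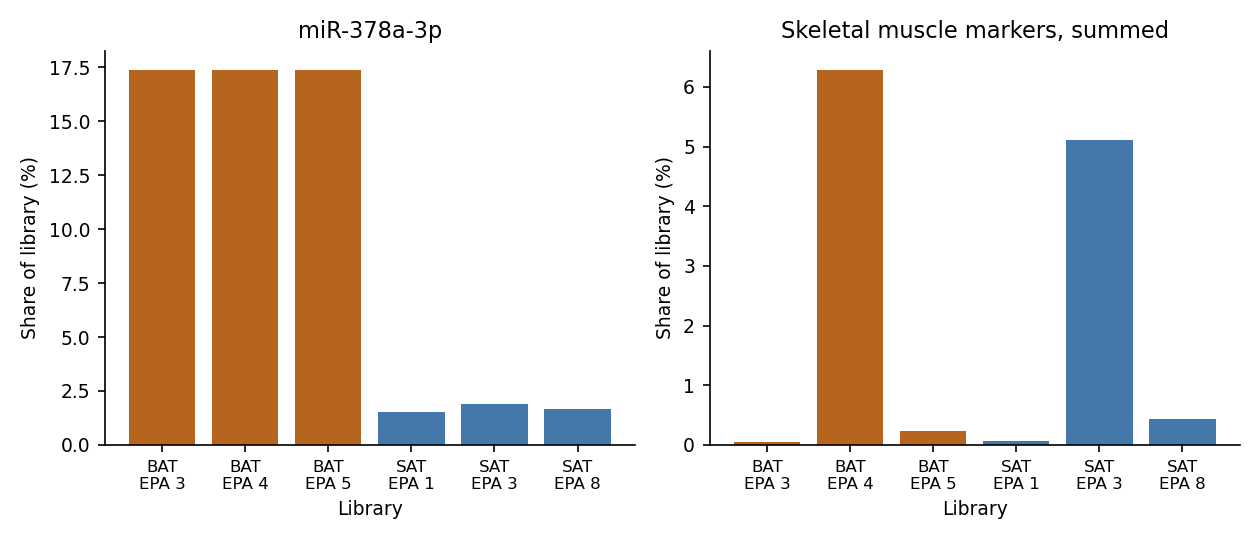
Share of each library (percent of the linear total) taken by miR-378a-3p (left) and by the sum of 5 skeletal muscle markers (right), brown libraries first. MiR-378a-3p is at 17.4% in all 3 brown libraries and below 2% in the subcutaneous libraries, while the muscle markers are highest in BAT_EPA 4 (6.29%) and SAT_EPA 3 (5.12%).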

How the data were processed

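Small RNA libraries of 6 samples were used, grouped by tissue from their titles. The series' design text states that the count of every unique read was divided by the usable total, that 40 was added, and that about 13.8 M reads a sample were mapped; the submitters' processing notes name mm10. Aligner and annotation: not given in the sources used here. Deposited by the authors were log2 values; at 64% of the top 100 ranks, the value was the same in the 6 libraries (within 1e-06).

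The fit was limma 3.58.1 under R 4.3.3 (brown minus subcutaneous, mean-variance trend, Benjamini-Hochberg over all tested entries at 0.05). An entry was tested if its mean above the floor reached 1e-05 of the mean library total (24.0 linear units). Arm ratios were fitted likewise over hairpins with both arms tested. Shares used exact permutation tests (scipy 1.17.1). Both fits were tested on simulated data. Sequences came from RefSeq (GRCm38.p6) and positions from GENCODE M21 on GRCm38.

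The members and lists were chosen with earlier results of these data known. Entries named were the members, other miR-378 entries, rank neighbours, the 5 nearest patterns per arm, tested list members, and the 3 largest arm-ratio differences per direction. The labels do not say that samples came from separate mice, so the p-values reflect sample-to-sample spread that may be technical.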

Additional observations from a re-analysis of the deposited data

How the results depend on the processing

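The alternatives were other scalings, pseudocounts, filters and variance models and leaving out libraries; removal of the 2 libraries highest in miR-133a-3p, collapsing of identical rows and summing of miR-378c with miR-378a-3p were chosen after seeing the data. Under these, the log2 differences of miR-378a-3p, miR-378a-5p, miR-378c and miR-378d kept their direction and their side of the threshold; miR-378b, tested through the brown libraries alone, is left out of this statement and gave no value under the stricter filter. Leaving out 1 library gave 3.29 to 3.44 for miR-378a-3p and 3.93 to 4.24 for miR-378a-5p. Leaving out a brown library could not move the value of miR-378a-3p (3.37 each time), because its brown values are all equal. The arm ratio passed the threshold with 40 added to the linear values (-0.67, limma adjusted p = 0.0498) and with the stricter filter (-0.73, adjusted p = 0.022), where 15 hairpins were tested in place of 54; without 1 library it was -0.85 to -0.64 (adjusted p 0.087 to 0.17), and the exact permutation test gave p = 0.1. Called entries numbered 186, and 127 to 189 under the alternatives (127 of 157 with the stricter filter). The stated mean of mapped reads does not give a depth per library, so no counting interval is given. No paired analysis was possible because the groups share a single replicate number, 3, and the labels do not say that it marks the same mouse.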
